A study of Rattus norvegicus with 12 samples.

Results

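The genes described here are the Wnt ligands, their receptors and their regulators in rat bronchi. They are all genes whose symbol is Wnt, Fzd, Sfrp, Dkk or Rspo followed by a number, together with Lrp5, Lrp6, Ctnnb1, Axin1, Axin2, Apc, Lef1, Tcf7, Tcf7l2, Wif1, Frzb and Porcn. Of 14217 genes on the array, 40 met this rule: 13 ligands, 1 gene of ligand processing, 2 secreted enhancers, 8 secreted inhibitors, 9 receptors and 7 transducers inside the cell. The array has 1 probe set for 22 of them and several for the other 18, and a gene was read from its probe set with the highest mean signal.

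Male Wistar Han rats, 6 to 7 weeks old on arrival, breathed air or 200 ppm of 2,3-pentanedione (PD), a diketone vapour of butter flavouring, for 6 hours a day on 12 days over 2 weeks. Bronchial tissue was cut from frozen lung by laser capture, and 12 specimens gave 1 array each. The 6 control arrays are of normal bronchi of air-exposed rats. After PD, 3 arrays are of fibrotic bronchi, cut with the muscle and adventitia below the lesion, and 3 are of non-fibrotic bronchi, whose epithelium looked normal or was regenerating. Non-fibrotic bronchi came from rats that also had fibrotic ones, and the labels do not tie a specimen to a rat, so the p-values measure the spread between specimens and no pairing by rat could be fitted.

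Wnt proteins are secreted, lipid-modified ligands that Porcn makes ready for export. They bind a Frizzled receptor (Fzd) with the co-receptor Lrp5 or Lrp6, which halts the destruction complex of Apc and Axin, so that beta-catenin (Ctnnb1) builds up and switches on genes with the factors Tcf7, Tcf7l2 and Lef1. Other ligands, Wnt5a among them, act largely through branches that do not need beta-catenin and that set cell polarity and calcium. Sfrp proteins, Frzb and Wif1 bind the ligands outside the cell, Dkk2 acts on the co-receptors, and R-spondins (Rspo) make cells more sensitive to Wnt. In the lung the pathway is known for its part in budding of the embryonic airway and in repair of the adult epithelium.

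Axin2 is a feedback inhibitor that beta-catenin itself switches on, and Wif1 had the smallest p-value of the 40 genes, so the 250 bases before the start of these genes are shown, from RefSeq on build GRCr8. The Axin2 window is chr10:94398535-94398784 and the Wif1 window chr7:58433329-58433578, both on the plus strand and read 5′ to 3′. Capitals mark the letters CTTTGAT or CTTTGAA, the core to which TCF and LEF factors bind, searched on both strands.
Axin2: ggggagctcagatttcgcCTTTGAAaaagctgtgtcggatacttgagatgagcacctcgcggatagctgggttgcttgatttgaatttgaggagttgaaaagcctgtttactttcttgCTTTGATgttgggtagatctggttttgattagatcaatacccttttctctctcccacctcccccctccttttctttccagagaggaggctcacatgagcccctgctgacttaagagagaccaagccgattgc
Wif1: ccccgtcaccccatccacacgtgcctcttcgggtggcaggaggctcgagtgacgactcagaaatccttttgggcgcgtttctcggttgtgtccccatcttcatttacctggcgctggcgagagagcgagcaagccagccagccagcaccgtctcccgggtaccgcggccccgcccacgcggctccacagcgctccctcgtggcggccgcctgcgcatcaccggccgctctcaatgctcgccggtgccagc
The Axin2 window held both motifs, which began 232 and 132 bases before the start, and the Wif1 window held none. Such letters were in 7.6% of all 27457 promoter windows of that length (2081 windows). Among the 29 Wnt genes with a window, Axin2 was the 1 gene that held them (3.4%). A match of letters is a description of the window and not a binding site.

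Signals are on a log2 scale throughout, so that 1 unit is a doubling. The highest signal of probes for a bacterial transcript that is not in the samples, 6.52 over 36 values, was taken as the background level. A difference counted from that level is one in which every signal at or under it was set to it, and a fold from that level against a group wholly under it is a bound. Above it on all 12 arrays were 16 of the 40 genes, 20 were above it on some arrays, and Rspo3, Wnt1, Wnt10a and Wnt8b on none. Controls 1 and 2, whose labels are worded like those of the exposed arrays, stood apart from controls 3 to 6. For 23 of the 40 genes (57.5%) both lay outside the range of controls 3 to 6 on the same side, against 43.5% of all genes. They were above it for 12 genes, with Axin2, Apc, Lef1, Tcf7 and Sfrp1 among them, and below it for 11, with Wif1, Fzd6, Wnt4 and Wnt5b among them. The signal of spiked poly-A control RNA was 2.55 to 2.66 on controls 1 and 2, 9.99 to 10.6 on controls 3 to 6 and 8.11 to 11.1 on the exposed arrays. The 3′ minus 5′ signal of Gapdh, which grows as RNA is degraded, was 1.16 to 2.03, 0.70 to 0.90 and 1.59 to 2.35 in the same order. Single genes are therefore also compared with each set of controls where that changes a call. This covers genes of the 40 with an adjusted p under 0.05 or the smallest p in a role without a call, and not the others. Counts of the further lists are given against controls 1 and 2 alone.

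**Figure D1:**
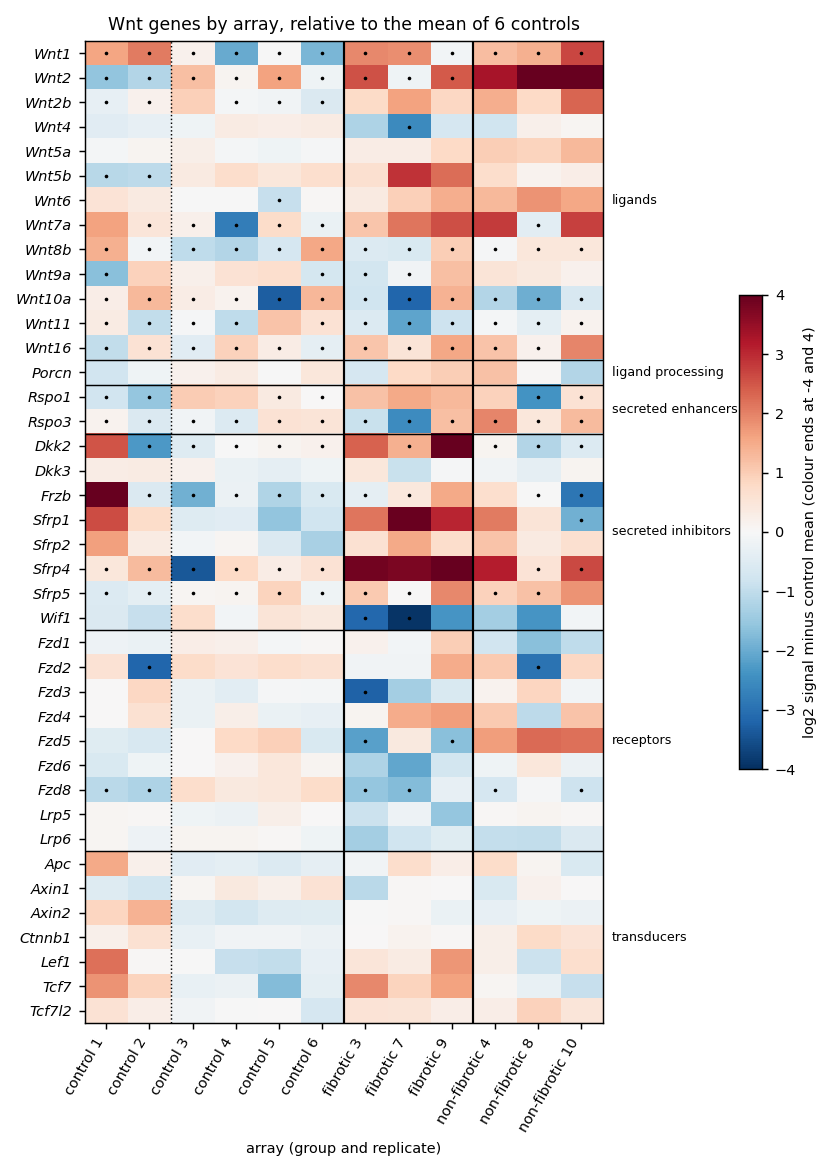
Log2 signal of each of the 40 Wnt genes (vertical axis, by role) on each of the 12 arrays (horizontal axis), minus the mean of the 6 controls; red is higher, blue is lower, the colour ends at 4 units, and a dot marks a signal at or under the background level of 6.52. Sfrp4 and Sfrp1 are red and Wif1 is blue on the 3 fibrotic arrays, Wnt2 and Fzd5 are red on the 3 non-fibrotic arrays, and Axin2, Apc and Tcf7 are redder on controls 1 and 2 than on controls 3 to 6.

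The first comparison was of fibrotic bronchi with air controls. Wif1, a secreted inhibitor that binds Wnt ligands, fell 8.86-fold, or 6.74-fold counted from the background level, Sfrp4, another secreted ligand-binding inhibitor, rose at least 3.13-fold, and Fzd6, a Frizzled receptor that also serves planar polarity, fell 2.55-fold. These were the 3 of 40 genes (7.5%) called at an adjusted p under 0.01, where 12.5% of all genes were called. In the higher direction it was 1 of 40, against 4.13% of all genes, and in the lower direction 2 of 40, against 8.38%. At the looser level of adjusted p under 0.05, 9 of 40 genes passed (22.5%), equal to the 22.5% of all genes. The ranges of the groups did not overlap for 8 of 40 genes (20%), against 28.6% of all genes. As a group the 40 genes were thus called no more often than genes at large, and their median difference was 0.39 against 0.10 over all genes, with 25 positive and 15 negative. Counted from the background level both medians were 0, with 19 of the 40 genes positive, 15 negative and 6 at 0. Against controls 3 to 6 alone 6 of 40 genes were called, where 17.1% of all genes were, and without control 1 the count was 5. Against controls 1 and 2 alone none of the 40 was called, where only 2.01% of all genes were. The calls against controls 3 to 6 included Wif1, Sfrp4, Fzd6, Sfrp1 and Tcf7, and the remainder is not named here. Of the 9 genes at the looser level, Wnt5b alone passed it against controls 1 and 2 (adjusted p = 0.0389), and against controls 3 to 6 Wnt5b (adjusted p = 0.0537) and Lrp5 (adjusted p = 0.0565) did not.

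Among the secreted inhibitors, Wif1 was between 8.54 and 10.16 in the controls, with a median of 9.60. It was 6.31, 5.55 and 7.10 in the fibrotic bronchi. All 3 fibrotic arrays lay below every control, and 1 of them was above the background level. The difference was -3.15 (95% interval -4.21 to -2.08, adjusted p = 3.8e-04), or -2.75 counted from the background level. Against controls 3 to 6 alone it was -3.52 (adjusted p = 3.2e-04), and against controls 1 and 2 alone it was -2.40 and was not called (adjusted p = 0.102). All exposed arrays share the label form of controls 1 and 2, so with that form as a term the difference was the same -2.40. It was not called either (adjusted p = 0.0183).

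Sfrp4 was at or under 5.01 in all 6 controls, with a median of 4.27 and a lowest value of 0.36, so the controls give only a bound. The fibrotic arrays read 7.60, 7.51 and 9.38. Every control was under the background level and every fibrotic array above it. The fitted difference was 4.41 (95% interval 2.42 to 6.41, adjusted p = 0.00392), and measured from the background level it was at least 1.65. The call did not hold without fibrotic array 3 (adjusted p = 0.0134), 7 (adjusted p = 0.0119) or 9 (adjusted p = 0.0302), nor against controls 1 and 2 alone (adjusted p = 0.0639). A second Sfrp4 probe set, whose mean was under the background level in each group, differed by -0.27 (adjusted p = 0.907).

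Sfrp1, which also binds Wnt ligands outside the cell, passed only the looser level. It was 8.36 ± 1.48 (SD, n = 6) in the controls and 11.42 ± 0.91 (SD, n = 3) in the fibrotic bronchi. The difference was 3.06 (adjusted p = 0.0186), and the groups overlapped because control 1 read 10.98. Without control 1 it was called (3.58, adjusted p = 0.00265), as it was against controls 3 to 6 alone (3.90, adjusted p = 0.00194). Against controls 1 and 2 alone the difference was 1.38 (adjusted p = 0.512). Dkk2, an antagonist at the co-receptors, had a fitted difference of 2.66 (adjusted p = 0.0503), with 2 of the 3 fibrotic arrays and 1 of the 6 controls above the background level. Counted from that level it was 0.69. The other 4 inhibitors, Sfrp2, Sfrp5, Frzb and Dkk3, differed by -0.16 to 0.99 and none passed either level. The 0.99 was that of Sfrp5, whose controls were all under the background level, and it was 0.18 counted from there.

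Of the 9 receptors, 1 was called (11.1%, against 12.5% of all genes). At the looser level 4 passed (44.4%, against 22.5% of all genes), all lower in fibrotic bronchi. Fzd6 was 9.06 to 10.13 in the controls, with a median of 9.72. It was 8.44, 7.57 and 8.92 in the fibrotic bronchi. The ranges did not overlap, the controls nearest to the fibrotic arrays being controls 1 and 2. The difference was -1.35 (95% interval -2.04 to -0.66, adjusted p = 0.00839). This call sat at the threshold: it did not hold under 14 of 25 alternatives (adjusted p 0.0106 to 0.35), which include leaving out any one of controls 2 to 6 or fibrotic array 3 or 7. Against controls 3 to 6 alone it was called (-1.54, adjusted p = 0.00392). Against controls 1 and 2 alone (-0.97, adjusted p = 0.35) and with the label form as a fixed term (adjusted p = 0.136) or a random block (adjusted p = 0.0222) it was not.

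Fzd3, a Frizzled receptor known from axon guidance and planar polarity, differed by -1.73 (adjusted p = 0.0169), or -1.52 counted from the background level. It was 9.13 ± 0.44 (SD, n = 6) in the controls and 7.40 ± 1.35 (SD, n = 3) in the fibrotic bronchi, and the ranges did not overlap. The co-receptors Lrp6 and Lrp5 differed by -0.89 (adjusted p = 0.0224) and -0.88 (adjusted p = 0.0378), and fibrotic values of Lrp6 all lay below the controls. The other 5 receptors passed neither level. Fzd8 (-1.20, adjusted p = 0.16) and Fzd5 (-1.15, adjusted p = 0.169) had negative differences, which were -0.68 and -0.32 counted from the background level, and Fzd1, Fzd2 and Fzd4 differed by 0.35 to 1.09. The median difference over the 9 receptors was -0.89, where that of all genes was 0.10, and counted from the background level the medians were -0.68 and 0.

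Among the 13 ligands none was called, against 12.5% of all genes. At the looser level 2 passed (15.4%, against 22.5% of all genes), in opposite directions. Wnt4, a ligand known from kidney and gonad development, had the smallest p. It was 7.95 to 8.73 in the controls, with a median of 8.46, and 7.16, 5.84 and 7.73 in the fibrotic bronchi. The fibrotic arrays all lay below the controls. The difference was -1.48 (95% interval -2.38 to -0.59, adjusted p = 0.0226), or -1.26 counted from the background level. Wnt5b, a ligand of the branches without beta-catenin, differed by 1.92 (adjusted p = 0.0261). It was 6.72 ± 0.85 (SD, n = 6) in the controls, where controls 1 and 2 were the lowest, and 8.64 ± 1.16 (SD, n = 3) in the fibrotic bronchi. Counted from the background level its difference was 1.63. With the label form as a term, which leaves the comparison to controls 1 and 2, it was 3.00 and was called (adjusted p = 0.0047). Those controls, at 5.60 and 5.68, were under the background level, so that 3.00 rests on signals below it. The other 11 ligands differed by -1.16 (Wnt11) to 1.95 (Wnt7a), and the median over all 13 ligands was 0.92. Counted from the background level Wnt11 differed by -0.05 and Wnt7a by 0.66, 5 of the 13 ligands were at 0, and their median was 0.

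Of the secreted enhancers, Rspo1 was 4.28 to 6.85 in the controls, with a median of 6.02, and 7.01, 7.35 and 7.13 in the fibrotic bronchi. All 3 fibrotic arrays were above every control, but the difference of 1.34 was not called (95% interval -0.25 to 2.92, adjusted p = 0.234). Only 2 of the 6 controls were above the background level, from which it was 0.55. The fitted value was 2.49 against controls 1 and 2 alone (adjusted p = 0.245) and 0.76 against controls 3 to 6 alone (adjusted p = 0.479). Rspo3 stayed under the background level on every array. Porcn, the acyltransferase that lipidates Wnt proteins, was 7.99 to 9.20 in the controls, with a median of 8.82, and 8.08, 9.55 and 9.74 in the fibrotic bronchi. These ranges overlapped, and the difference was 0.38 (95% interval -0.62 to 1.38, adjusted p = 0.624).

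None of the 7 transducers was called in fibrotic bronchi, against 12.5% of all genes. Tcf7, a nuclear partner of beta-catenin that is also a T cell factor, had the smallest p among them. It was 8.32 to 11.85 in the controls, with a median of 9.80, and 11.97, 10.95 and 11.66 in the fibrotic bronchi. Control 1 and control 2, at 11.85 and 10.94, reached the fibrotic range and the other 4 controls did not. The difference was 1.47 (adjusted p = 0.0737), and it was called against controls 3 to 6 alone (2.13, adjusted p = 0.00156) and without control 1 (1.83, adjusted p = 0.00966). Against controls 1 and 2 alone the difference was 0.14 (adjusted p = 0.911). Marker genes of T cells had a summed signal of 8.56 to 12.49 in the controls and 12.31 to 12.72 in the fibrotic bronchi, and their part in the Tcf7 values was not tested.

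Axin2, the feedback target whose promoter window is given above, was 8.94 to 11.05 in the controls, with a median of 9.16. It was 9.65, 9.71 and 9.40 in the fibrotic bronchi and 9.32, 9.49 and 9.42 in the non-fibrotic ones. All 6 exposed arrays lay between controls 3 to 6, which ended at 9.17, and controls 1 and 2, at 10.51 and 11.05. The difference from control was -0.08 in fibrotic bronchi (95% interval -0.94 to 0.79, adjusted p = 0.926) and -0.25 in non-fibrotic bronchi (95% interval -1.11 to 0.62, adjusted p = 0.73).

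Beta-catenin itself gave opposite readings from its 4 probe sets. The brightest, which represents Ctnnb1 here, differed by 0.07 in fibrotic bronchi (adjusted p = 0.844), and the next by 0.19 (adjusted p = 0.548). The other two were called lower, by -1.20 (adjusted p = 0.00555) and -1.09 (adjusted p = 0.00743). Probe sets of 1 gene differed in sign for 8 of the 18 genes that have several.

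Markers of the cell types in the tissue moved in the same comparison. All 5 measured ciliated cell markers and all 6 club cell markers were called lower in fibrotic bronchi. The log2 of the summed ciliated signal was 14.73 to 15.25 in the controls, 12.22 to 12.37 in fibrotic and 14.52 to 15.16 in non-fibrotic bronchi. For club cells it was 15.70 to 16.67, 12.52 to 14.09 and 15.62 to 16.34 in the same order. Of 9 fibroblast markers 5 were called higher, with levels of 14.86 to 15.63, 16.12 to 16.68 and 15.14 to 15.73. Of 7 macrophage markers 4 were called higher, with levels of 13.70 to 14.49, 14.66 to 15.43 and 14.35 to 14.76. Of 6 markers of alveolar type II cells 2 were called lower, with levels of 14.28 to 15.29, 11.83 to 15.47 and 15.59 to 15.99. No marker of smooth muscle, T cells, endothelium or basal cells was called in this comparison, and no marker of the 9 cell types was under the background level on all arrays. The part of these shifts in the Wnt values was not tested, and in such bulk tissue fewer cells of a type and less RNA per cell cannot be told apart.

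**Figure D2:**
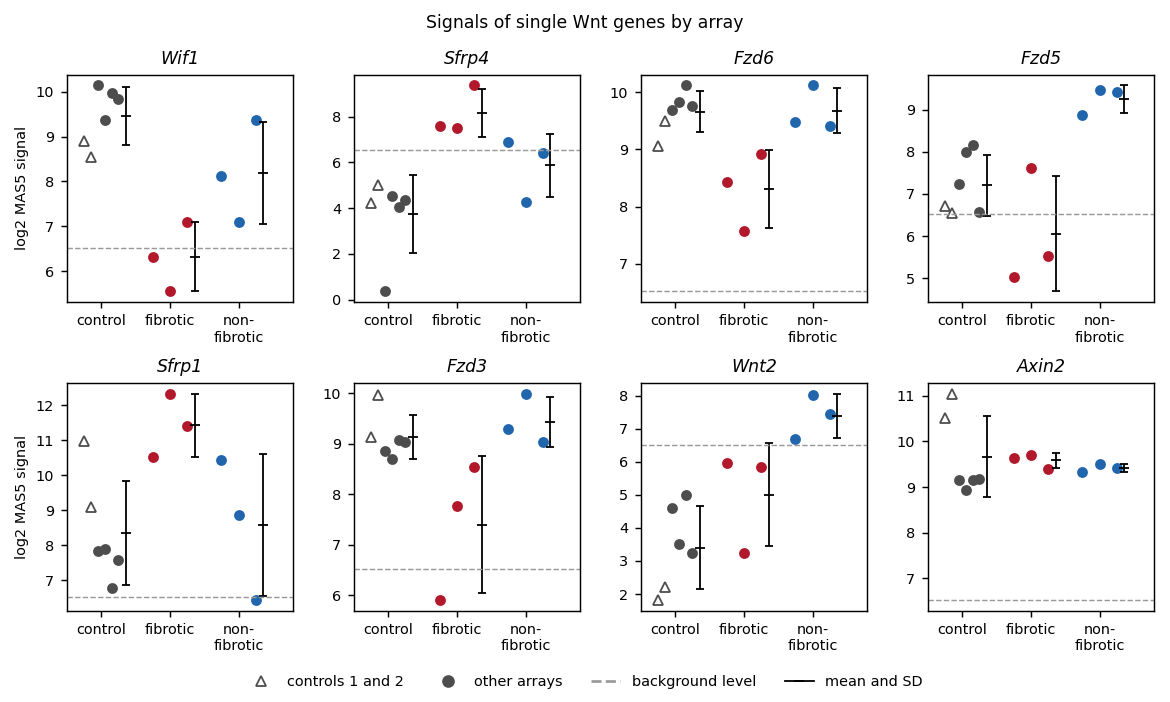
Log2 signal (vertical axis, with its own range in each panel) of 8 Wnt genes on each array, by group; triangles are controls 1 and 2, bars are the mean and SD of each group, and the dashed line is the background level of 6.52. Wif1 and Fzd6 are below all controls on the 3 fibrotic arrays, all Sfrp4 controls are below the background level, Fzd5 and Wnt2 are highest on the 3 non-fibrotic arrays, and the 2 highest Axin2 values are those of controls 1 and 2.

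The second comparison set bronchi without fibrosis after PD against air controls. No Wnt gene was called by limma at an adjusted p under 0.01, where 0.619% of all genes were. At the looser level 5 of 40 passed (12.5%), against 6.56% of all genes: Wnt2, Wnt5a, Wnt6 and Fzd5 were on the higher side and Fzd1 on the lower. None of these 5 passed that level against controls 1 and 2 alone, where adjusted p was 0.0962 for Wnt2, 0.422 for Wnt5a, 0.481 for Wnt6, 0.238 for Fzd5 and 0.461 for Fzd1. Against controls 3 to 6 alone Fzd5 did not pass it either (adjusted p = 0.0641), and the others did. The groups did not overlap for 7 of 40 genes (17.5%), against 14.8% of all genes. The median difference of the 40 genes was 0.15, against 0.00 over all genes, and it was 0.016 counted from the background level.

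Of those 5 genes 3 were ligands, which is 23.1% of the 13 ligands, against 6.56% of all genes. A positive difference was seen for 10 of the 13 ligands, and the median over all 13 was 1.06. Counted from the background level 8 were positive, 2 negative and 3 at 0, and the median was 0.011. Wnt2, a ligand of lung mesenchyme needed for early lung budding, was 1.81 to 5.01 in the controls, with a median of 3.37. It was 6.68, 8.03 and 7.46 in the non-fibrotic bronchi. Every control was under the background level and every non-fibrotic array over it. The fitted difference was 3.99 (95% interval 2.20 to 5.78, adjusted p = 0.0189), which is at least 1.83-fold from the background level. With a pseudocount of 16 it was 2.69 and called (adjusted p = 0.0049). Its second probe set, with means under the background level, differed by -0.057 (adjusted p = 0.978).

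Wnt6, an epithelial ligand, was 6.79 ± 0.51 (SD, n = 6) in the controls and 8.34 ± 0.25 (SD, n = 3) in the non-fibrotic bronchi, a difference of 1.55 (adjusted p = 0.0405). Wnt5a, which acts mainly without beta-catenin, was 7.78 ± 0.15 (SD, n = 6) and 8.85 ± 0.21 (SD, n = 3), a difference of 1.06 (adjusted p = 0.045). For both genes the 3 non-fibrotic arrays were above all 6 controls. In fibrotic bronchi Wnt6 differed from control by 0.92 (adjusted p = 0.137) and Wnt5a by 0.47 (adjusted p = 0.293), with the same controls behind both comparisons. Wnt2b, closely related to Wnt2, differed by 1.53 and missed the looser level (adjusted p = 0.066). Counted from the background level its difference was 1.12.

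Among the receptors, Fzd1 had the smallest p. It was 9.45 to 9.99 in the controls, with a median of 9.70, and 8.95, 8.04 and 8.71 in the non-fibrotic bronchi. All 3 lay below every control, and the difference was -1.15 (95% interval -1.76 to -0.53, adjusted p = 0.0339). Fzd5, a receptor known from intestinal epithelium, was 6.55 to 8.15 in the controls, with a median of 6.97, and 8.87, 9.47 and 9.42 in the non-fibrotic bronchi. These arrays were above every control by 2.05 on average (95% interval 0.87 to 3.23, adjusted p = 0.0438). Lrp6, whose non-fibrotic values also all lay below the controls, differed by -0.83 (adjusted p = 0.0589). The other 6 receptors differed by -0.52 to 0.38.

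The secreted inhibitor with the smallest p in non-fibrotic bronchi was again Wif1, at 8.12, 7.10 and 9.37. Array 10, at 9.37, was within the control range and the others below it. The difference was -1.27 (95% interval -2.33 to -0.20, adjusted p = 0.125), and it passed the looser level against controls 3 to 6 alone (-1.64, adjusted p = 0.049). Sfrp4, with 1 of 3 non-fibrotic arrays and no control above the background level, had a fitted difference of 2.11 (adjusted p = 0.166), which was 0.13 counted from that level. Sfrp1 differed by 0.22 (adjusted p = 0.892).

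Rspo3 had the smaller p of the enhancers. It was 3.74 to 4.87 in the controls, with a median of 4.32, and 6.25, 4.75 and 5.57 in the non-fibrotic bronchi, all under the background level. Porcn was 9.93, 8.80 and 7.57, which spans the whole control range (0.02, adjusted p = 0.981). Ctnnb1, the transducer with the smallest p, was 13.37 to 14.28 in the controls, with a median of 13.53, and 13.89, 14.43 and 14.22 in the non-fibrotic bronchi. The ranges overlapped through control 2, and the difference was 0.52 (95% interval 0.11 to 0.93, adjusted p = 0.109). It was called against controls 3 to 6 alone (0.72, adjusted p = 0.00545). Its 4 probe sets gave opposite readings here too. The next brightest differed by 0.67 (adjusted p = 0.0569). The other 2 were lower and passed the looser level, by -1.42 (adjusted p = 0.0113) and -0.94 (adjusted p = 0.0425). The mean of all 4 differed by -0.30 (adjusted p = 0.202).

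The third comparison set fibrotic against non-fibrotic bronchi, both after PD, which is also the test of whether their differences from control differ. Fzd5 was lower in fibrotic bronchi, 5.18-fold counted from the background level and 9.18-fold as fitted, and was the 1 of 40 genes called (2.5%), against 5.30% of all genes. None of 40 was called higher, against 1.47% of all genes, and the 1 lower call stands against 3.83%. At the looser level 4 of 40 passed (10%), against 12.6% of all genes, and all 4 were Frizzled receptors. Groups did not overlap for 14 of 40 genes (35%), against 27.4% of all genes.

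Fzd5 was 5.03, 7.61 and 5.53 in fibrotic bronchi, where 1 of 3 arrays was above the background level. In non-fibrotic bronchi it was 8.87, 9.47 and 9.42. The highest fibrotic array lay below the lowest non-fibrotic one, and the controls lay between the means of both. The difference was -3.20 (95% interval -4.56 to -1.83, adjusted p = 0.00521), or -2.37 counted from the background level. The call did not hold without fibrotic array 3 (adjusted p = 0.0301) or 9 (adjusted p = 0.0208) or without non-fibrotic array 8 (adjusted p = 0.0242) or 10 (adjusted p = 0.0241), and a second, dimmer probe set differed by -1.93 (adjusted p = 0.328).

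Fzd1 went the other way from Fzd5. It was 9.89, 9.59 and 10.70 in fibrotic bronchi, all above the non-fibrotic values given above. The difference was 1.49 (95% interval 0.78 to 2.20) and missed the call narrowly (adjusted p = 0.0103). Of 25 alternatives 8 called it, among them quantile normalization (1.47, adjusted p = 0.00841) and median centring (1.58, adjusted p = 0.00327). The other 17 did not, with adjusted p up to 0.0733. Fzd3 (-2.04, adjusted p = 0.0259) and Fzd6 (-1.36, adjusted p = 0.0303) passed the looser level, and for both the 3 fibrotic arrays lay below the 3 non-fibrotic ones. Of 25 alternatives 1 called Fzd3, the fit without fibrotic array 9 (-2.60, adjusted p = 0.00755). The other 24 did not, with adjusted p up to 0.105. Its fibrotic array 3, at 5.90, was under the background level, from which the difference was -1.83. Differences of the other 5 receptors ran from -0.94 (Lrp5) to 0.76 (Fzd2), and that of Fzd2 was -0.12 counted from the background level.

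In the other roles no gene passed the looser level between fibrotic and non-fibrotic bronchi. Wif1 differed by -1.88 (95% interval -3.11 to -0.65, adjusted p = 0.0527), with fibrotic array 9 and non-fibrotic array 8 both at 7.10. Counted from the background level its difference was -1.48. Dkk2 did not overlap between the groups, but all 3 non-fibrotic arrays were under the background level, so it was at least 1.43-fold higher in fibrotic bronchi (fitted difference 3.20, adjusted p = 0.064). Sfrp1 differed by 2.84 (adjusted p = 0.0805), without overlap of the arrays. Sfrp4 differed by 2.30 (adjusted p = 0.216), or 1.52 counted from the background level. Tcf7, at 10.15, 9.75 and 9.14 in non-fibrotic bronchi, was 1.85 higher in the fibrotic ones (95% interval 0.52 to 3.18, adjusted p = 0.0783).

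The ligand with the smallest p was Wnt4, at 7.59, 8.61 and 8.48 in non-fibrotic bronchi (-1.32, 95% interval -2.35 to -0.28, adjusted p = 0.107). Counted from the background level its difference was -1.09. Wnt2 was lower in all fibrotic arrays than in the non-fibrotic ones (fitted difference -2.38, adjusted p = 0.148). All fibrotic values were under the background level, from which Wnt2 was at least 1.83-fold lower. Rspo3, at 3.42, 1.81 and 5.50 in the fibrotic bronchi, was under the background level in both groups, and Porcn differed by 0.36 (adjusted p = 0.752). A test over all 3 groups at once called 3 of 40 genes (7.5%), against 11.9% of all genes: Wif1 (adjusted p = 0.00134), Fzd5 (adjusted p = 0.00654) and Fzd1 (adjusted p = 0.00981).

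**Figure D3:**
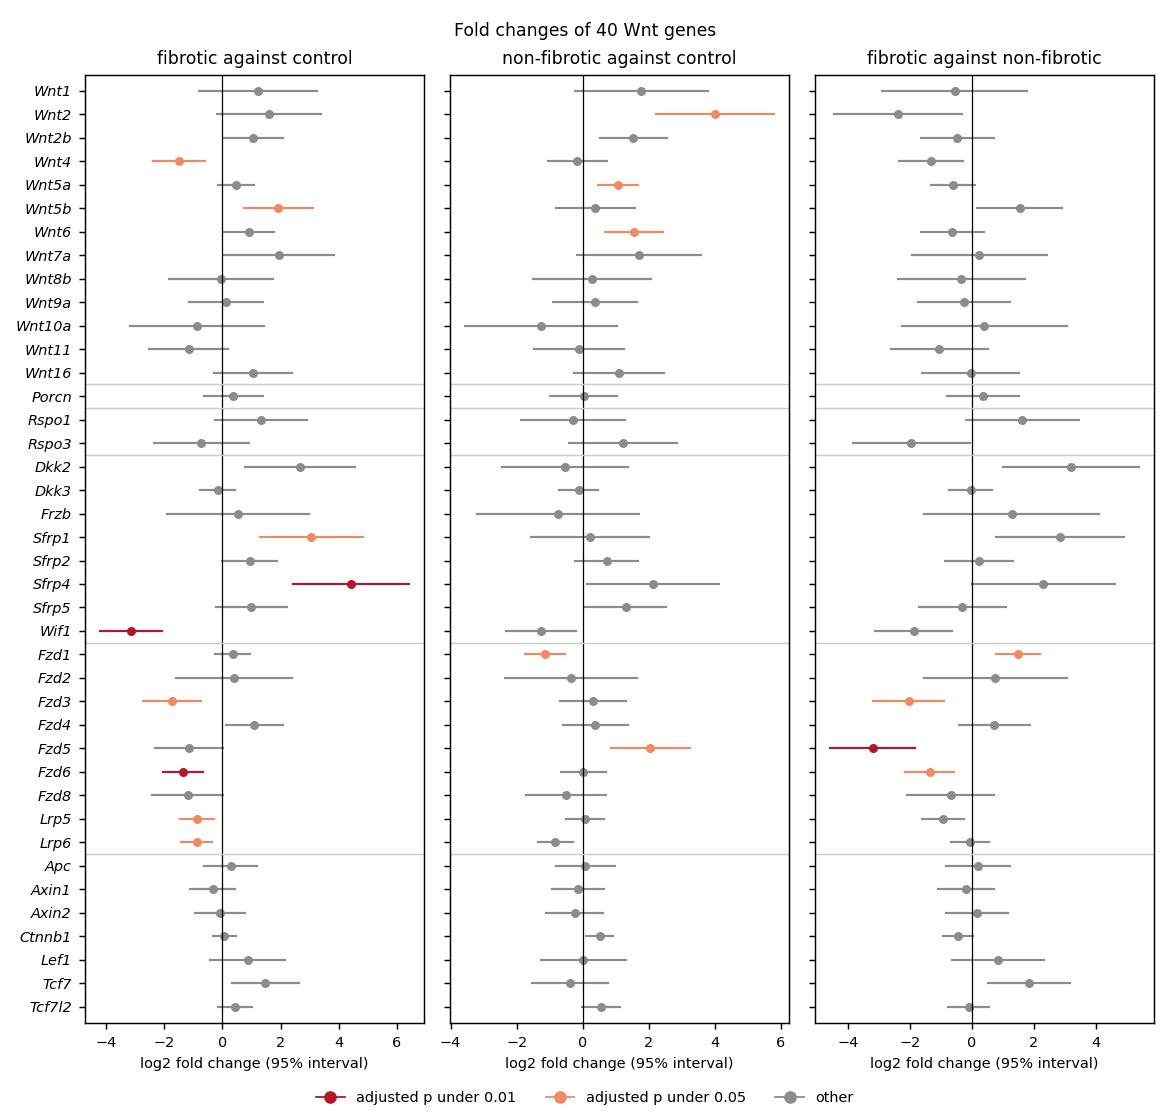
Difference in log2 signal (horizontal axis) of the 40 Wnt genes (vertical axis, by role) in each of the 3 comparisons, with 95% intervals; dark red is an adjusted p under 0.01, orange under 0.05 and grey other. Fibrotic against control has 3 genes in dark red (Sfrp4 at 4.41, Wif1 at -3.15 and Fzd6 at -1.35), non-fibrotic against control has none, and fibrotic against non-fibrotic has Fzd5 at -3.20.

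Around these 40 genes, 4 further lists of the pathway were counted in the same fit. All were chosen with earlier results of these data known, so their shares are descriptions and not independent evidence. The first holds 22 measured modulators at the membrane and outside the cell. In fibrotic bronchi 1 was called higher (4.55%, against 4.13% of all genes) and 6 lower (27.3%, against 8.38%), with a median difference of -0.68 against 0.10 over all genes. Against controls 1 and 2 alone 2 were called, Sostdc1 and Tspan12, where 2.01% of all genes were. Cthrc1, a secreted collagen triple helix protein of injured and fibrosing tissue, rose by 4.08 (adjusted p = 4.0e-04). Sostdc1, a secreted antagonist of Wnt and BMP signals, fell by 3.27 (adjusted p = 5.0e-06), from 10.20 ± 0.49 (SD, n = 6) to 6.93 ± 0.58 (SD, n = 3). Tspan12, a tetraspanin that helps Norrin signal through Fzd4, fell by 3.23 (adjusted p = 1.5e-05).

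The R-spondin receptors Lgr5 and Lgr6, markers of stem cells in other epithelia, were also among the lower calls. Lgr5 fell by 2.70 (adjusted p = 9.7e-04), with 1 fibrotic array above the background level and 2.22 counted from it, and Lgr6, with no fibrotic array above the background level, fell at least 2.02-fold (adjusted p = 0.0067). Apcdd1, a membrane inhibitor of Wnt, fell at least 2.64-fold (adjusted p = 0.00663). Tnfrsf19, a TNF receptor family member that is also counted among the target genes, fell at least 2.12-fold (adjusted p = 3.2e-04). In non-fibrotic bronchi Tnfrsf19 was the 1 gene of this list called (4.55%, against 0.619% of all genes). Again no exposed array was above the background level, and it fell at least 2.12-fold (adjusted p = 0.00174). Sostdc1 and Tspan12 were also lower in fibrotic than in non-fibrotic bronchi, by -3.39 (adjusted p = 5.5e-05) and -2.62 (adjusted p = 0.00101). They were the 2 calls of the list there (9.09%, against 5.30% of all genes).

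Of 40 measured transducers of the cytoplasm and nucleus, 2 were called in fibrotic bronchi (5%, against 12.5% of all genes), with a median difference of 0.08. Against controls 1 and 2 alone it was 1, Cby1, where 2.01% of all genes were called. Ctnnbip1, which blocks beta-catenin from TCF factors, rose by 1.95 (adjusted p = 4.8e-04). Cby1, which binds beta-catenin and also sits at the base of cilia, fell by 2.29 (adjusted p = 6.4e-04). Cby1 was also lower than in non-fibrotic bronchi, by -2.34 (adjusted p = 0.00367), where it was the 1 call of the list (2.5%, against 5.30% of all genes). None of the 40 was called in non-fibrotic bronchi against control. The ciliated marker levels given above moved in the same comparisons as Cby1, and their part in the Cby1 values was not tested.

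The planar polarity and calcium branch, 33 genes, had 4 calls in fibrotic bronchi (12.1%, against 12.5% of all genes), and its median difference was -0.12. None was called against controls 1 and 2 alone, where 2.01% of all genes were. Prickle1, a core polarity protein, rose by 2.60 (adjusted p = 9.1e-04) and the small GTPase Rhoa by 0.60 (adjusted p = 0.00877). Vangl1, another core polarity protein, fell by 1.51 (adjusted p = 0.00837), and Ankrd6, a polarity regulator, by 3.87 (adjusted p = 0.00668), or 2.15 counted from the background level. In this list 1 array was enough to change the count: it was between 1 and 4 when single arrays were left out. Nfatc1, a calcium-responsive transcription factor, was the 1 call in non-fibrotic bronchi (3.03%, against 0.619% of all genes). It differed by -3.89 (adjusted p = 0.0099), and 1 of 3 non-fibrotic arrays was above the background level. Counted from that level it was -1.41, and it was not called without any one of 10 arrays. Between fibrotic and non-fibrotic bronchi no gene of the list was called.

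Among 29 measured genes that beta-catenin is known to switch on in other tissues, 7 were called higher in fibrotic bronchi (24.1%, against 4.13% of all genes) and 1 lower (3.45%, against 8.38%). The median difference was 0.78, against 0.10 over all genes. This list was chosen with earlier results of these data known. The study had already reported Fn1, Postn and Plaur, which are on it, as raised in fibrotic bronchi. Its shares are therefore no independent evidence on the pathway. The smallest p-values were those of Fn1 (4.79, adjusted p = 6.0e-05), Postn (3.90, adjusted p = 2.8e-04) and Birc5 (2.57, adjusted p = 4.6e-04), beside the lower Tnfrsf19. Fn1 and Postn are matrix proteins and are also 2 of the 5 fibroblast markers called higher, and Birc5 is a protein of cell division. Fn1 (3.49, adjusted p = 0.00618) and Postn (3.54, adjusted p = 0.0045) were the calls above non-fibrotic bronchi (6.9%, against 1.47% of all genes). In non-fibrotic bronchi 2 of the 29 were called (6.9%, against 0.619% of all genes). Ccnd1, the cyclin of the early cell cycle, rose by 1.66 (adjusted p = 0.00177) and Tnfrsf19 was lower. Of these target genes none was called against controls 1 and 2 alone, in either kind of bronchus. That fit called 2.01% of all genes in fibrotic bronchi and 0.0141% in non-fibrotic ones, so a count of none says little there. The genes of this list answer to several pathways, and which of them lay behind these values was not tested. Axin2, counted among the 40, was not called in any comparison. Its exposed arrays lay above controls 3 to 6 and below controls 1 and 2.

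**Figure D4:**
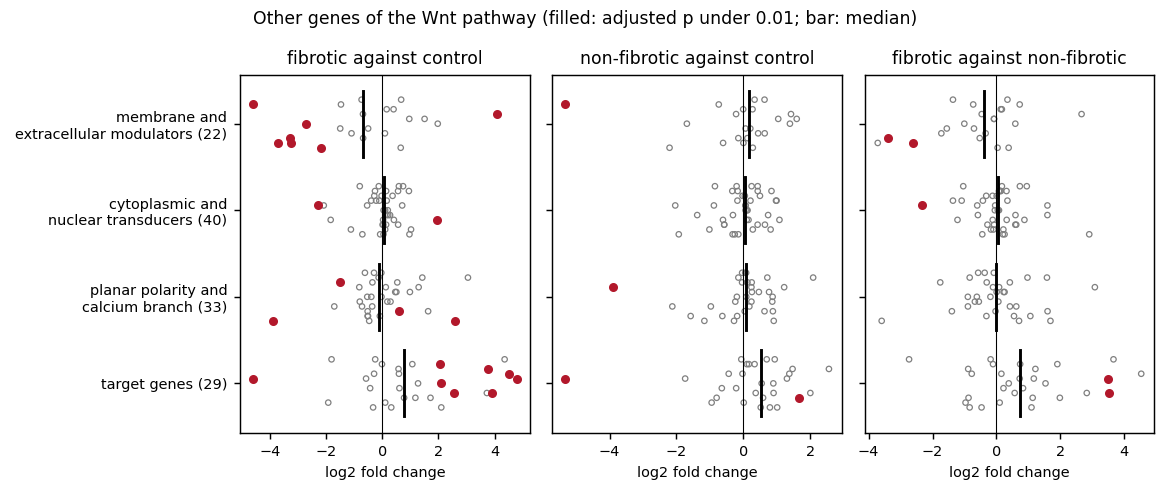
Difference in log2 signal (horizontal axis) of each gene in 4 further lists of the Wnt pathway (vertical axis, with the number of genes measured), in the 3 comparisons; filled red points have an adjusted p under 0.01 and the black bar is the median. In fibrotic against control, 6 of 7 filled points are below 0 among the membrane and extracellular modulators and 7 of 8 are above 0 among the target genes. The lists were chosen with earlier results of these data known.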

How the data were processed

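RNA of laser-captured rat bronchi was amplified and hybridized to Affymetrix arrays, 1 specimen each, in 6 control, 3 fibrotic and 3 non-fibrotic arrays. The intensity values deposited by the authors are MAS5 signals on a linear scale, 1 for each probe set, scaled by the authors to the same trimmed mean on each array (500.1 to 500.2, with 2% left out at each end). The series' design text names a Rat Gene 1.0 ST array, but the probe set names are those of an older 3′ expression array of the rat. Neither detection calls nor Rosetta Resolver's error weights were used here. The number of arrays limits the precision.

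Of 31099 probe sets, 57 are manufacturer controls and 31042 were tested. The platform annotation gives 1 symbol for 20826, several for 436 and none for 9780, and probe sets with several were not assigned to a gene. Log2 signals without a pseudocount were fitted in R 4.3.3 with limma 3.58.1 (lmFit, then eBayes with a trend on intensity), with 1 mean per group over all 12 arrays. Calls were made at a Benjamini-Hochberg adjusted p under 0.01, over all tested probe sets within a comparison. No sample was dropped or imputed. The methods used an error-weighted analysis of variance instead. Folds against a group wholly under the background level are bounds from that level. For many genes near it, but not all, the fitted difference is given with the difference counted from it. The fit was tested on simulated data.

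The 40 genes, the pathway lists and the cell type markers were chosen with earlier results of these data known. Values in every sample are given for called genes and for the gene of smallest p in a role without a call, and at most 4 genes of smallest p per other list, with further names where a count is small. Lgr5, Lgr6 and Apcdd1 fell outside that number and were named after their values were seen. Alternatives changed the normalization, pseudocount, floor, filter on dim probe sets, variance model, arrays in the fit, label form of the controls, probe set per gene, threshold and single arrays. Leaving out single arrays in the test of 3 groups was added after seeing the data. Promoter windows are from RefSeq on GRCr8, and 29 of 40 genes matched by symbol.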

Additional observations from a re-analysis of the deposited data

Results flagged for a closer look

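Among the 6 controls, 1 array lay far from the nearest other for 8 of the 40 Wnt genes (20%). The rule marks about 1 in 20 such groups when all arrays come from 1 source, but controls 1 and 2 stood apart from controls 3 to 6. The share over all genes was not counted, so the 20% cannot be called high for these genes. Control 1 was the high array for Apc (11.09, next 9.77), Frzb (10.55, next 5.77) and Lef1 (10.02, next 7.85). Control 2 was high for Fzd3 (9.97, next 9.13) and low for Fzd2 (3.66, next 7.39). Control 3 was low for Sfrp4 (0.36, next 4.05), and control 5 for Wnt10a (0.69, next 4.13) and Wnt6 (5.85, next 6.78). Both Sfrp4 values and both Wnt10a values are under the background level, where the order of signals carries little. The difference from control of Fzd5 was not the same in fibrotic and in non-fibrotic bronchi, by -3.20 in the direct test (limma, adjusted p = 0.00521), or -2.37 with signals under the background level set to it.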

How the results depend on the processing

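Counts of called Wnt genes were small and moved with most choices. For fibrotic against control (3 genes) the count was 1 without the intensity trend, 6 with array quality weights, 0 against controls 1 and 2 alone, 6 against controls 3 to 6 alone, 1 with label form as a fixed term (Wnt5b), 1 with it as a random block (Wif1), 9 at an adjusted p under 0.05 and 2 to 5 with single arrays left out. For non-fibrotic against control (0 genes) it was 1 with a pseudocount of 16, 2 with a floor at the 20th percentile, 1 against controls 3 to 6 alone, 5 at 0.05, 1 at the methods' p and fold, and 0 without any single array. For fibrotic against non-fibrotic (1 gene) it was 2 after quantile normalization, median centring, a pseudocount of 16, leaving out the dimmest 40%, both uses of label form and at the methods' p and fold; 0 without the trend, with array weights, with only the 2 groups, with controls 1 and 2 alone and with second probe sets; 4 at 0.05; and 0 to 2 without single arrays. The test of 3 groups (3 genes) called 5 after quantile normalization, 0 with controls 1 and 2 alone, 8 with controls 3 to 6 alone and 1 to 5 without single arrays. Shares of all genes called moved too. In fibrotic bronchi they were 2.01% against controls 1 and 2 alone and 17.1% against controls 3 to 6 alone. In non-fibrotic bronchi they were 0.0141% and 4.21%, and between both kinds of bronchus 2.53% and 6.51%. The causes were not tested.

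Of the further lists, membrane modulators had 7 calls in fibrotic bronchi and 2 against controls 1 and 2 alone (5 to 8 without single arrays), transducers 2 and 1 (2 to 5), the polarity and calcium branch 4 and 0, with 2 after quantile normalization (1 to 4), and target genes 8 and 0 (5 to 10). In non-fibrotic bronchi membrane modulators (1), the polarity and calcium branch (1) and target genes (2) all had 0 against controls 1 and 2 alone (1 to 1, 0 to 1 and 1 to 2 without single arrays). Only 0.0141% of all genes were called there against controls 1 and 2 alone. Between both kinds of bronchus target genes had 2 calls and 1 with controls 1 and 2 alone (0 to 5), transducers 1 (0 to 1) and the polarity and calcium branch 0 (0 to 2).

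Axin2 was not among the single genes put through the alternatives. Among those that were, the sign turned for Sfrp4 in fibrotic bronchi with its second probe set (-0.27). In non-fibrotic bronchi it turned for Wnt2 (-0.057, second probe set) and Ctnnb1 (-0.30, mean of probe sets), and it also turned for Porcn. Porcn differed from control in non-fibrotic bronchi by -0.15 with array weights, -0.21 against controls 3 to 6, -0.12 with the mean of probe sets, -0.26 with its second probe set, -0.13 without control 1, -0.01 without control 2, and from -0.56 without non-fibrotic array 4 to 0.62 without array 10. Between both kinds of bronchus it ran from -0.24 without non-fibrotic array 10 to 0.94 without array 4. No paired analysis was possible because the labels do not tie a specimen to a rat. Signals under the background level limit Sfrp4, Wnt2, Wif1, Fzd5, Dkk2, Rspo1 and most ligands.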
